A study of Mus musculus with 8 samples.

Results

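Sox9, Lhx2, Tbx1 and Foxc1 encode transcription factors of the hair follicle's bulge stem cells, and the open chromatin around these 4 genes was followed from the bulge to its dividing progeny. A peak was counted for a member when that member was the protein-coding gene nearest to the peak's midpoint, within 100 kb of the gene's span. By this rule 135 of 266630 peaks belonged to the members. After overlapping peaks of the 4 lists had been merged, they formed 53 sites out of 114956. Lhx2 had 20 sites, Sox9 17, and Tbx1 and Foxc1 had 8 each. The rule uses position alone and no measured height.

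ATAC-seq, in which a transposase cuts and tags open DNA, had been run on 4 cell populations sorted from mouse back skin, with 2 samples of mixed sex in each. Bulge stem cells (GFP+, CD34+, integrin α6+ and β1+) and hair germ cells (CD34- but otherwise the same) came from Lgr5-eGFP-ires-CreER mice in telogen, the resting phase, at postnatal day 55. Basal transient amplifying cells (TACs, the dividing cells of the growing follicle) came from mice of the same strain in anagen, the growth phase, at postnatal day 30, and were negative for GFP, CD34 and SCA1, P-cadherin-positive with much integrin β1. Suprabasal TACs came from K14-H2BGFP mice, also in anagen at postnatal day 30, and had little GFP, no CD34 and no integrin α6. The GFP of the former strain is driven by the Lgr5 locus, and that of the latter by the keratin 14 promoter. Cell type, hair cycle phase and age therefore cannot be told apart between the bulge and either TAC population, nor can strain for the suprabasal TACs. The sources used here do not give the number of mice behind each sample. The authors deposited 1 peak list per population, called on both samples pooled, so no value has a spread between samples and no test between populations was made.

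The bulge is the permanent niche of the follicle's stem cells, and the hair germ below it holds the cells that divide first when a new hair cycle starts. SOX9, an HMG-box factor, and LHX2, a LIM homeodomain factor, are known for keeping the bulge cells in the stem cell state. FOXC1, a forkhead factor, is known for holding these cells quiescent, and TBX1, a T-box factor, for their self-renewal. Open chromatin near such a gene marks DNA that regulators can reach; it is not a measure of the gene's transcription.

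Sequences at start sites of Lhx2, Foxc1 and Tbx1 are shown first, since peaks of all or some lists lie over them. Each is the 250 bases before a RefSeq transcript start on the gene's own strand, 5′ to 3′, in GRCm38.p6, the assembly of mm10. Capitals mark matches to the motifs searched.
Lhx2, first start, chr2:38339031-38339280, plus strand: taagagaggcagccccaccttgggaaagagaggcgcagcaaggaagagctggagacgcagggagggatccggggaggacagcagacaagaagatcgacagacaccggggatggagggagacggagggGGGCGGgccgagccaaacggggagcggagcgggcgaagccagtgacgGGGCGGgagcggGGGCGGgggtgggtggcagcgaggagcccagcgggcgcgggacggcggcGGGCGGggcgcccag
Lhx2, second start, chr2:38351058-38351307, plus strand: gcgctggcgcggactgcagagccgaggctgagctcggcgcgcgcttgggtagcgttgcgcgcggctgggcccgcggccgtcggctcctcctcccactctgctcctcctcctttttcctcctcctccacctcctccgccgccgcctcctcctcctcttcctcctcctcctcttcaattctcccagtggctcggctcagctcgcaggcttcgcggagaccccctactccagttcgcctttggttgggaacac
Foxc1, chr13:31806396-31806645, plus strand: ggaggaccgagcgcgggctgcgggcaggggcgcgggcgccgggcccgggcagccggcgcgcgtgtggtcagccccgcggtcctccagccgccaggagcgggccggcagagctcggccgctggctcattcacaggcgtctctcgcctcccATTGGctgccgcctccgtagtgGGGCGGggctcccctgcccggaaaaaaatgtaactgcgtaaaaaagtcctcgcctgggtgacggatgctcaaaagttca
Tbx1, start within the gene span, chr16:18588900-18589149, minus strand: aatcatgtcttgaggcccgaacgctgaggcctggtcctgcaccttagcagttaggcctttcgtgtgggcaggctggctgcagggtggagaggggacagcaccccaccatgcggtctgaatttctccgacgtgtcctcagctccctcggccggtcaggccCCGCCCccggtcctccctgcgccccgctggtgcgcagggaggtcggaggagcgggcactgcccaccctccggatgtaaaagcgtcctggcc

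The first Lhx2 window is 72.8% GC, the second 68.4%, the Foxc1 window 70.8% and the printed Tbx1 window 67.2%. The window of the other Tbx1 start, at the upper gene end and not printed, is 54.4% GC. The median over 32851 RefSeq windows of the same length is 52.4%. The GC box GGGCGG, a site for SP-family factors, occurs 4 times in the first Lhx2 window, at 123, 76, 64 and 15 bases before the start. It occurs 1 time each in the Foxc1 window (79 bases) and the printed Tbx1 window (91 bases, read as CCGCCC). The Foxc1 window also holds the CCAAT box, read as ATTGG, 101 bases before the start. Both motifs are common: 32.7% of all windows hold GGGCGG and 33.8% hold CCAAT. The other motifs searched on both strands were ACAATG and ACAAAG (SOX), TAATTA (LIM homeobox), GGTGTGA (T-box), GTAAACA (forkhead), CTTTGAT (TCF/LEF), the palindromic NFI motif, TGANTCA (AP-1) and TATAAA. Their letters are in none of the members' 5 windows, which include a second Tbx1 start. Over all windows they were present in 10.7%, 16.5%, 4.84%, 3.33%, 3.17%, 3.21%, 0.0365%, 6.75% and 12.4% in the same order.

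Heights are given in FPM, the fragment coverage at the highest peak of a site per 1000000 fragments of that library. The pooled libraries held 24065469 fragments (bulge), 11053351 (hair germ), 30824845 (basal TACs) and 47852893 (suprabasal TACs), so that 1 fragment is worth 0.0416, 0.0905, 0.0324 and 0.0209 FPM. The lowest coverage that was called a peak was 10, 6, 12 and 15 fragments in the same order. Ratios carry exact binomial 95% intervals, which cover counting error only. Heights were lower in the TAC libraries over the whole genome. Over the 29716 gene-assigned sites held by all 4 lists, the median log2 ratio to the bulge was 0.02 in the hair germ, −0.51 in basal TACs and −1.14 in suprabasal TACs, and values called relative below are set against these medians. In sorted populations, fewer cells with an open site and a site less open in each cell cannot be told apart.

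The members' sites were held most often by the telogen lists. Of the 53 sites, the bulge list held 35, the hair germ list 36, the basal TAC list 29 and the suprabasal TAC list 31. Of all 102805 gene-assigned sites, the lists held 55337, 49679, 67445 and 65019 in the same order. Sites with a peak in telogen and in neither TAC list numbered 15, or 28.3%, where this class took 14.9% of the 102805 gene-assigned sites. Of these, 8 (15.1%) were held by both telogen lists, against 6.26% over all sites. Sites found only in anagen numbered 10, or 18.9%, where 40.4% of all gene-assigned sites fell into that class. A further 16 sites, or 30.2%, were in all 4 lists, close to the 28.9% of all sites. In 1 list alone were 1 member site of basal TACs (13.7% over all gene-assigned sites), 6 of suprabasal TACs (15.8%), 4 of the bulge (6.35%) and 3 of the hair germ (2.26%).

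**Figure D1:**
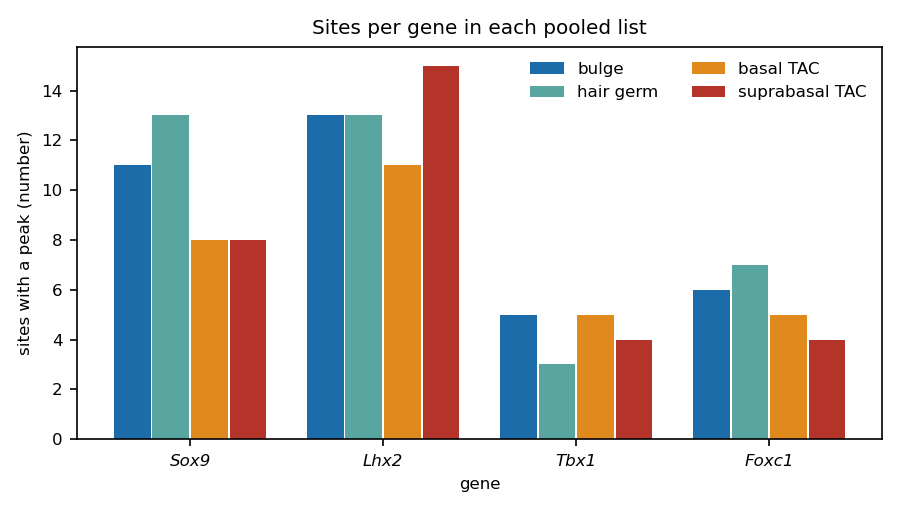
Number of sites (y axis) held by each of the 4 peak lists at Sox9, Lhx2, Tbx1 and Foxc1, 1 bar per list. Sox9 fell from 11 and 13 sites in the telogen lists to 8 and 8 in the anagen lists, while Lhx2 had most sites, 15, in the suprabasal TAC list.

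The 4 genes did not share 1 pattern. At Sox9 the lists held 11, 13, 8 and 8 sites in the order bulge, hair germ, basal and suprabasal TAC. The counts were 13, 13, 11 and 15 at Lhx2, then 5, 3, 5 and 4 at Tbx1, and 6, 7, 5 and 4 at Foxc1. The telogen-only class held 6 Sox9 sites, 5 Lhx2 sites, 2 Tbx1 sites and 2 Foxc1 sites. The anagen-only class held 2, 5, 3 and 0 sites in that order.

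**Figure D2:**
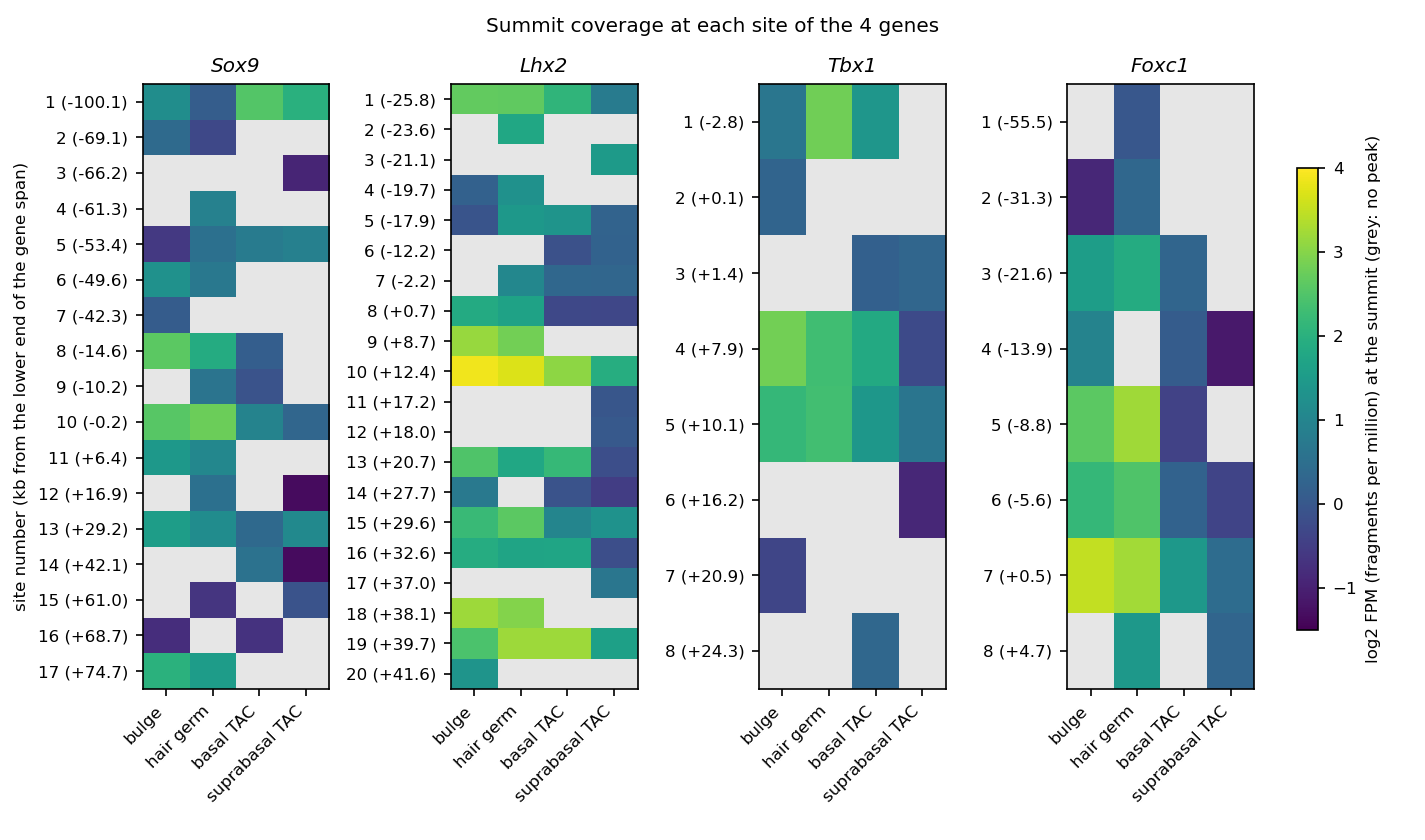
Height of every member site in the 4 libraries, as log2 FPM in colour, with grey where the list has no peak. Rows are the 53 sites in genome order within each gene, labelled by site number and distance in kb from the lower gene end, and the sites at the second Lhx2 start and the Foxc1 start carry the highest values in the bulge column.

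Lhx2 carried the highest bulge site of the members, at its second start. This site (chr2:38350081-38353351, within the gene) measured 14.8 FPM in the bulge, 13.0 in hair germ cells, 8.37 in basal TACs and 3.82 in suprabasal TACs. It was the highest Lhx2 site in both telogen lists and in the suprabasal list. The fall was stepwise: the bulge was 1.76-fold above basal TACs (1.5 to 2.08) and 3.86-fold above suprabasal TACs (3.22 to 4.64). Relative to the common sites the last of these was a factor of 1.75. The 4 summits lay 291, 384, 328 and 304 bases before the start, just upstream of the printed window in all lists.

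The site over the first Lhx2 start (chr2:38339078-38340783) was lower and changed in shape. Its bulge height was 3.62 FPM and its hair germ height 3.17, and both TAC heights were lower, at 0.811 (basal) and 0.794 (suprabasal). Both telogen summits lay just past the start, by 136 and 141 bases, and only the telogen peaks reached into the printed window, covering 81.2% of it. The suprabasal peak began a few bases past the start, at 38339285, with its summit 196 bases in. The basal TAC peak began at 38339835 and had its summit 742 bases in. The bulge was 4.46-fold above basal TACs (2.83 to 7.26) and 4.55-fold above suprabasal TACs (3.08 to 6.85).

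A pair of tall Lhx2 sites was present in telogen and had no TAC peak. The site between both starts (chr2:38347551-38348463, within the gene) measured 8.93 FPM in the bulge and 7.15 in hair germ cells. The site 7.6 kb above the gene (chr2:38377037-38377610, higher coordinates) measured 9.22 and 7.87. After the second start, these were the highest Lhx2 sites of the bulge. Judged by the local background of the nearest called peak, a peak at the former would have needed 48 fragments in basal and 56 in suprabasal TACs. The bulge height scaled to those libraries is 5.74 and 7.63 times that. At the latter 58 and 41 fragments would have been needed, which the scaled bulge height exceeds 4.90-fold and 10.8-fold.

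Not every Lhx2 site was highest in the bulge. The site 9.3 kb above the gene, next to the telogen-only site just described, measured 5.40 FPM in the bulge, 9.14 in hair germ cells, 9.12 in basal TACs and 3.07 in suprabasal TACs. It was the highest basal TAC site of all members, 1.69-fold above the bulge (1.37 to 2.09). A site 17.9 kb below the gene, towards lower coordinates, measured 0.956, 2.71, 2.56 and 1.19, with basal TACs 2.68-fold above the bulge (1.67 to 4.47). Against the bulge, neighbouring sites thus moved in opposite directions in basal TACs.

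Both TAC populations differed from each other at several Lhx2 sites. An intragenic site (chr2:38359572-38360457) measured 5.57 in the bulge and 4.57 in basal TACs, a ratio of 1.22 whose interval of 0.954 to 1.55 includes 1, and only 0.878 in suprabasal TACs. A site 2.1 kb above the gene measured 3.74, 3.34 and 0.878, and 3.26 in the hair germ. Its bulge summit, at 38371390, lay outside the peaks of the other lists. Those began at 38372041 (basal TACs), 38372214 (hair germ) and 38372244 (suprabasal TACs), so the bulge height there belongs to other DNA. Basal exceeded suprabasal TACs 5.21-fold at the intragenic site (3.67 to 7.54) and 3.81-fold at the site 2.1 kb above the gene (2.64 to 5.59). Between these lists the common sites differed by a median log2 ratio of −0.61. At 2.2 kb below the gene, the hair germ had 2.08, basal TACs 1.27 and suprabasal TACs 1.25, with no bulge peak. An intragenic site near the upper end had 1.66 in the bulge, 0.941 in basal and 0.711 in suprabasal TACs. Its bulge peak (38366571 to 38366815) and basal TAC peak (38366958 to 38367225) did not overlap and were joined by the suprabasal peak. The other Lhx2 sites in all 4 lists were 1 at 25.8 kb below the gene, with 6.40, 6.33, 4.31 and 1.73, and 1 near the upper gene end, with 4.70, 6.15, 2.01 and 2.47. In all, 6 of the 8 Lhx2 sites held by all lists were lowest in suprabasal TACs, as were 75.8% of all gene-assigned sites in the 4 lists.

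The suprabasal list nevertheless added Lhx2 sites of its own. Of the 5 anagen-only sites, 4 had a suprabasal peak alone, and the tallest, 21.1 kb below the gene, measured 2.84 FPM. The telogen libraries would have called that height, which is 5.26 times what the bulge list and 2.09 times what the hair germ list needed there. The other 3, at 0.982, 1.02 and 1.59 FPM, were below the level needed in the bulge and hair germ lists, at 0.585 to 0.821 times it. Their absence from telogen was thus not detectable at this depth and background. In the same order they were 1.16, 1.21 and 0.844 times what a basal TAC call needed. The remaining anagen-only site, in both TAC lists, measured 0.908 and 1.17. The smaller telogen-only sites were 1 in both lists, with 1.16 and 2.44, 1 in the hair germ alone with 3.44 and 1 in the bulge alone with 2.53. The height of 2.53 was 0.934 times what a hair germ call needed.

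Sox9 lies in a large gene desert on chromosome 11, with its neighbours Gm11677 1055.9 kb below and Slc39a11 457.1 kb above. The site over its lower gene end (chr11:112781067-112783015) measured 5.94 FPM in the bulge and 6.79 in hair germ cells, the highest Sox9 site of the hair germ. It fell to 1.95 in basal TACs and 1.25 in suprabasal TACs. The bulge exceeded basal TACs 3.05-fold (2.24 to 4.20) and suprabasal TACs 4.74-fold (3.48 to 6.52). Relative to the common sites these were factors of 2.14 and 2.15, nearly the same for both TAC lists. Bulge and hair germ had a ratio of 0.876 with an interval that includes 1 (0.658 to 1.17). The tallest Sox9 site of the bulge, 14.6 kb below the gene (chr11:112767062-112768249), measured 6.15, then 3.71 in the hair germ, 1.10 in basal TACs, and had no suprabasal peak. There the bulge stood 5.58-fold above basal TACs (3.82 to 8.35). In the suprabasal library 15 fragments would have sufficed for a call, and the scaled bulge height is 19.6 times that.

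The telogen-only sites of Sox9 lay on both sides of the gene. The tallest, 69.1 kb above it (chr11:112856487-112857315), measured 4.03 in the bulge and 2.90 in hair germ cells, 10.4 and 12.9 times, by the bulge height, what a call in basal and suprabasal TACs needed. A site 0.8 kb above the gene measured 2.70 and 2.08, 1 at 49.6 kb below measured 2.45 and 1.63, and 1 at 69.1 kb below measured 1.33 and 0.814. The last pair was held by 1 list each, with 1.90 in the hair germ at 61.3 kb below and 1.08 in the bulge at 42.3 kb below. The bulge was the higher of both telogen lists at all 4 shared sites, but each interval of the ratio includes 1.

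Some of the other Sox9 sites were higher in a TAC list than in the bulge. A site 53.4 kb below the gene measured 0.665 FPM in the bulge and 1.45, 1.72 and 1.86 in the hair germ, basal and suprabasal TACs. Suprabasal TACs were 2.80-fold above the bulge (1.63 to 5.10). The ratios of basal TACs to hair germ, 1.19 (0.669 to 2.23), and of suprabasal to basal TACs, 1.08 (0.761 to 1.55), have intervals that include 1. A site at the edge of the 100 kb limit (chr11:112681036-112683184) measured 2.29, 1.09, 5.77 and 3.95, with basal TACs 2.53-fold above the bulge (1.86 to 3.48) and 5.32-fold above the hair germ (2.97 to 10.5). This site belongs to Sox9 only through 1 basal TAC peak of 1.36 FPM whose midpoint lay 99.3 kb from the gene. The suprabasal peak of the same site lay just outside, at 100047 bp. The last site in all 4 lists, 23.7 kb above the gene, measured 2.95, 2.26, 1.30 and 2.15 and had suprabasal above basal TACs by 1.66-fold (1.14 to 2.45). At 55.5 kb above the gene, suprabasal TACs had 0.94 and the hair germ 0.633, with no peak in the other lists, where the suprabasal height is 2.42 times what a basal TAC call needed. The anagen-only sites were small: 1 measured 1.49 in basal and 0.397 in suprabasal TACs, and 1 measured 0.522 in suprabasal TACs alone. The height of 0.522 was 0.962 times what a hair germ call needed. The other Sox9 sites were also small, with 1.54 in hair germ cells and 0.941 in basal TACs at 10.2 kb below, 1.45 in the hair germ and 0.397 in suprabasal TACs at 11.4 kb above, and 0.582 in the bulge and 0.616 in basal TACs at 63.1 kb above.

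The desert beyond 100 kb was read as an extension, since Sox9 stays the nearest gene over a wider stretch. Within 500 kb it was nearest to 60 sites, 43 of them beyond the 17 described. The bulge list held 32 of these outer sites, the hair germ list 25, basal TACs 21 and suprabasal TACs 20. Of all 113878 sites placed within 500 kb of a gene, the lists held 60818, 54298, 74145 and 69886 in the same order. Telogen-only sites numbered 15, or 34.9%, where 15.7% of all sites placed within 500 kb of a gene were of that class. Anagen-only sites numbered 9, or 20.9%, against 40.7%. At least 5 FPM was reached by 11 outer sites in the bulge and 10 in hair germ cells, or 34.4% and 40% of those each list held, and by 0 in either TAC library, where the highest were 4.90 and 2.61. Over all sites within 500 kb of a gene that height was reached by 27.1% in the bulge, 28.2% in hair germ cells, 11.8% in basal and 4.35% in suprabasal TACs. The site at the 100 kb limit is counted among the 17 and not the outer sites, although its own midpoint lay 100.1 kb from the gene. It reached 5.77 FPM in basal TACs and 3.95 in suprabasal TACs.

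All 13 outer sites that the bulge and suprabasal lists shared were lower in suprabasal TACs, as were 84.1% of shared gene-assigned sites. The 13 had a median log2 ratio of −2.55 (−1.07 over all sites), or −1.41 relative to the common sites. The site at the 100 kb limit, not among the 13, went the other way, with 2.29 in the bulge and 3.95 in suprabasal TACs. The 14 outer sites that the bulge shared with basal TACs had a median of −1.53, or −1.01 relative. The tallest, 161.0 kb below the gene (chr11:112620429-112622077), measured 13.7 in the bulge, 8.23 in hair germ cells, 4.90 in basal and 1.61 in suprabasal TACs. A site 231.6 kb below measured 10.1, 8.05 and 2.69 with no suprabasal peak.

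A cluster of 5 sites stood 115.7 to 138.1 kb above the gene, and was named after its telogen heights were seen. Its bulge heights were 7.11, 8.81, 5.69, 8.64 and 9.56 FPM in genome order, and its hair germ heights 6.42, 8.05, 4.34, 10.0 and 7.96. Basal TACs had 2.40, no peak, no peak, 1.23 and 2.24, and suprabasal TACs 2.61, 1.25, no peak, 1.32 and 0.836. Basal TACs lacked a peak at 2 of the 5 sites and suprabasal TACs at 1. Of all 60818 bulge sites placed within 500 kb of a gene, 18696 lacked a basal and 23644 a suprabasal TAC peak.

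**Figure D3:**
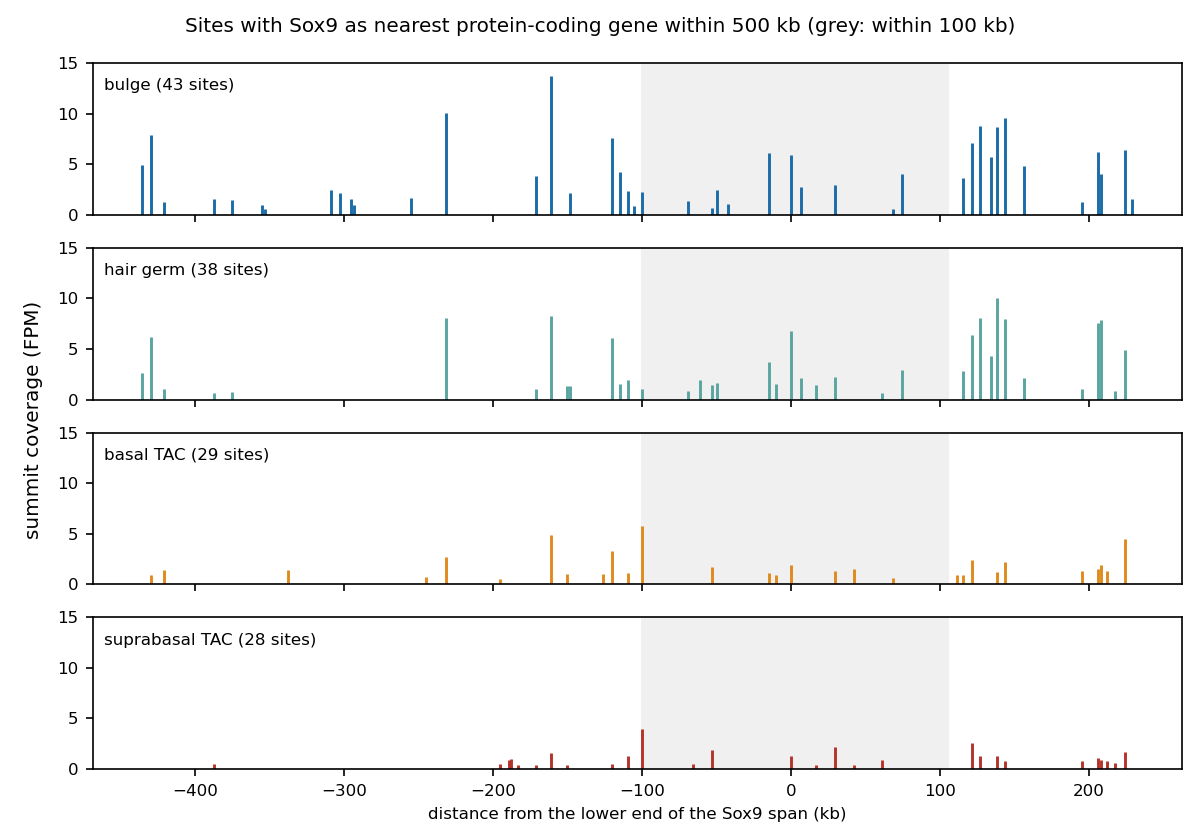
Height (FPM, y axis) of sites around Sox9 against distance in kb from the lower gene end, 1 panel per library, with the stretch within 100 kb shaded. The tall outer sites, such as that 161.0 kb below at 13.7 in the bulge, shrink to at most 4.90 in basal and 2.61 in suprabasal TACs. The site at the 100 kb limit is not counted with them. It is drawn at −100.1 kb, just outside the shading, with 5.77 and 3.95 in the same order.

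Foxc1 had the lowest median ratio to the bulge of the members in both TAC lists, although it rests on 5 and 3 shared sites. The site over its start (chr13:31805701-31808630) was the second highest bulge site of all members, at 11.3 FPM, with 9.41 in the hair germ, 2.69 in basal TACs and 1.36 in suprabasal TACs. The bulge exceeded basal TACs 4.21-fold (3.28 to 5.45) and suprabasal TACs 8.35-fold (6.35 to 11.1). Relative to the common sites these were factors of 2.95 and 3.79. The summits lay 148, 102, 83 and 22 bases before the start, all inside the printed window.

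The site 8.8 kb below Foxc1 (chr13:31797398-31798305) had the largest ratio of bulge to basal TACs among the 23 member sites with a peak in both lists. It measured 6.15 FPM in the bulge, 9.32 in hair germ cells and 0.746 in basal TACs, and had no suprabasal peak. The bulge was 8.24-fold (5.29 to 13.4) and the hair germ 12.5-fold (7.89 to 20.6) above basal TACs, and the hair germ 1.52-fold above the bulge (1.17 to 1.96). The neighbouring site 5.6 kb below the gene measured 4.45, 5.61, 1.17 and 0.773, a 3.81-fold (2.59 to 5.72) and 5.75-fold (3.92 to 8.60) lead of the bulge over basal and suprabasal TACs. Its bulge and hair germ summits, at 31800726 and 31800760, lay outside the only basal TAC peak, which began at 31801324. The telogen and basal TAC heights there thus belong to different DNA, and counts of basal TAC falls at Foxc1 include this site. The site 21.6 kb below measured 2.95, 3.71 and 1.23 with no suprabasal peak, where the scaled bulge height is 9.41 times what a call needed. Every Foxc1 site that the bulge shared with a TAC list was lower in the TACs, 5 of 5 for basal and 3 of 3 for suprabasal, as were 68% and 84.1% of all gene-assigned sites shared with the bulge.

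The other Foxc1 sites were small. A site 13.9 kb below measured 1.95 in the bulge, 1.07 in basal and 0.460 in suprabasal TACs, and the hair germ library would not have called the bulge height there, which is 0.899 times what it needed. The telogen-only sites measured 0.540 and 1.27 in the bulge and hair germ at 31.3 kb below, and 0.995 in the hair germ alone at 55.5 kb. The site 0.7 kb above the gene was held by the hair germ at 2.71 and suprabasal TACs at 1.23. Gmds begins 8.9 kb above Foxc1, so the rule gives Foxc1 few sites on that side. Within 100 kb in that direction, Gmds sites showed a like course: 7.60, 7.51, 1.69 and 1.86 at 66.6 kb, and 6.32 and 3.08 at 69.8 kb and 7.19 and 4.25 at 89.9 kb in the bulge and hair germ with no TAC peak. A site at 43.4 kb went the other way, with 0.724 in the hair germ, 3.82 in suprabasal TACs and no peak in the other lists. These Gmds sites were named after their values were seen.

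Tbx1 had few sites, and its neighbours stand close, Gnb1l 14.3 kb below and Gp1bb 29.6 kb above. The tallest, over the start within the gene (chr16:18587773-18589937), measured 7.15 FPM in the bulge, 4.98 in hair germ cells, 3.57 in basal TACs and 0.836 in suprabasal TACs. The bulge was 2.0-fold above basal (1.57 to 2.57) and 8.55-fold above suprabasal TACs (6.03 to 12.4). The summits were spread, from 114 bases before the start in basal TACs to 291, 558 and 758 bases past it in the bulge, suprabasal TACs and hair germ. The site over the upper gene end (chr16:18590329-18591907), where the gene's other start lies, was steadier, with 4.49, 5.07, 2.66 and 1.55 and summits only 42, 42, 44 and 72 bases past the start. Its bulge lead over suprabasal TACs was 2.90-fold (2.14 to 3.96), a factor of 1.32 relative to the common sites.

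The site 2.8 kb below Tbx1 (chr16:18577551-18578729) had the largest ratio of hair germ to bulge among the 28 member sites with a peak in both lists. It measured 1.58 FPM in the bulge, 6.97 in hair germ cells and 2.63 in basal TACs, with no suprabasal peak. The hair germ was 4.41-fold above the bulge (2.95 to 6.69) and 2.65-fold above basal TACs (1.92 to 3.67). In suprabasal TACs 25 fragments would have sufficed, which the scaled hair germ height exceeds 13.3-fold. The remaining Tbx1 sites measured at most 1.27. A pair held by the bulge alone had 1.21 and 0.790, and the anagen-only sites had 1.14 and 1.25 in basal and suprabasal TACs, 0.543 in suprabasal TACs and 1.27 in basal TACs. The bulge height of 1.21 was 0.832 times what a hair germ call needed. The suprabasal heights of 1.25 and 0.543 were 0.866 and 0.24 times that need, and 0.543 was 0.399 times the basal TAC need. Absence from those lists was thus not detectable at these sites.

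At 3 of the 5 starts, suprabasal TACs were at least 2-fold lower against the bulge than the common sites. The median relative log2 ratio of suprabasal TACs to the bulge was −0.09 over the 9264 sites that cover a RefSeq promoter window and are in all 4 lists, and 5.05% of them were at least 2-fold lower relative to the common sites. The Tbx1 site stood at −1.95, the Foxc1 site at −1.92, the first Lhx2 start at −1.05, the second at −0.81 and the upper Tbx1 start at −0.40. In basal TACs 4.83% were at least 2-fold lower in the same sense. The first Lhx2 start, at −1.64, and Foxc1, at −1.56, were among these, while the second Lhx2 start (−0.30) and both Tbx1 starts (−0.49 and −0.24) were not. Sox9 is not in this count, because the promoter windows used hold none for it.

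Over the lineage, the hair germ differed least from the bulge. Of the members' sites, 8 had a peak in the hair germ list only and 7 in the bulge list only, where 9.71% and 18.9% of all gene-assigned sites held by either list were of those kinds. The hair germ thus took 53.3% of the changed sites (95% Clopper-Pearson interval 26.6 to 78.7), against 33.9% over all sites. At the 28 shared sites the median log2 ratio was −0.19, with an interval of −0.38 to 0.34. Intervals of medians, here and below, are exact binomial order-statistic intervals over sites. They treat neighbouring sites as independent, and measure neither counting error nor a spread between samples. At least 2-fold higher were 5 of the 28 (5.5% of all shared sites), at Sox9 1, Lhx2 2, Tbx1 1 and Foxc1 1, and 1 was at least 2-fold lower (4.4%).

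Basal TACs and the bulge shared 23 member sites. A further 6 were in basal TACs only (33.8% over all sites) and 12 in the bulge only (19.3%), so that basal TACs held 33.3% of the changed sites (13.3 to 59), against 63.6% over all. The shared sites had a median log2 ratio of −0.82 (−1.26 to −0.16), against −0.45 over all shared sites, and −0.31 relative to the common sites. At least 2-fold lower were 10 (24.2% over all) and 3 were at least 2-fold higher (10.7%). Set against the common sites, 6 were 2-fold lower (10.3%): 3 at Foxc1, 2 at Sox9 and 1 at Lhx2. The bulge list enters this comparison and those of the hair germ and suprabasal TACs, so the 3 are not independent.

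**Figure D4:**
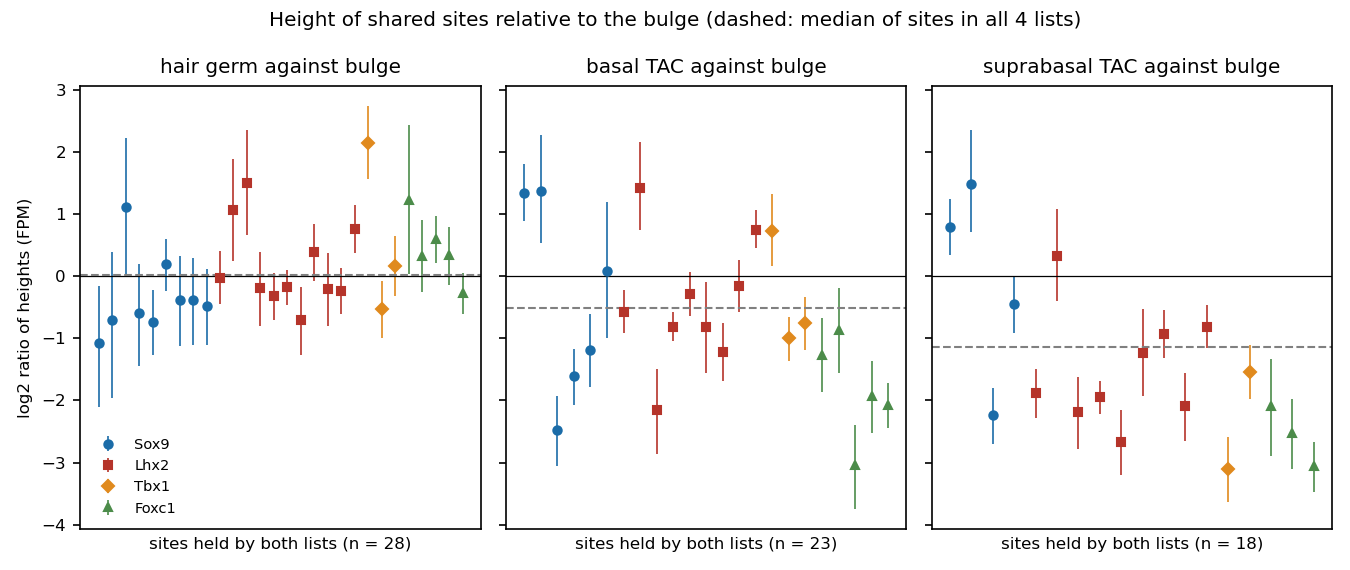
Log2 ratio of height to the bulge (y axis) at each site that the bulge shares with the hair germ (28 sites), basal TACs (23) or suprabasal TACs (18), with 95% counting intervals and a dashed line at the median of the sites held by all 4 lists. Foxc1 points lie below the solid line of no change in both TAC panels, whereas Sox9 and Lhx2 each have points on both sides.

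Suprabasal TACs shared only 18 member sites with the bulge. They held 13 sites without a bulge peak (35.1% over all sites), and the bulge held 17 without a suprabasal peak (23.7%). Their share of changed sites was 43.3% (25.5 to 62.6), against 59.7%. The median log2 ratio at shared sites was −1.92 (−2.24 to −0.81), against −1.07 over all, and −0.77 relative to the common sites. At least 2-fold lower were 12 of 18 (52.9% over all), 1 was at least 2-fold higher (4.36%), and relative to the common sites 6 were 2-fold lower (12.5%). The median hides the difference between genes: it was −2.52 over 3 Foxc1 sites, −2.32 over 2 Tbx1 sites and −1.88 over 9 Lhx2 sites, but 2 of the 4 shared Sox9 sites were higher in suprabasal TACs, 1 of them the site at the 100 kb limit. Relative to the common sites, the median over the 4 Sox9 sites was 1.31.

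Against the hair germ, basal TACs held 7 member sites alone (37.1% over all) and lacked 14 (14.5%). Of 22 shared sites 18 were lower in basal TACs (72.4% over all), with a median log2 ratio of −0.76 (−0.5 over all shared sites, and −0.21 relative to the common sites), and 9 were at least 2-fold lower (23.7%). Of the latter, 4 were at Foxc1, where all 4 shared sites qualified. Between both TAC populations, 9 member sites were in suprabasal TACs only (22.9%) and 7 in basal TACs only (25.7%), and 9 of 22 shared sites were at least 2-fold lower in suprabasal TACs (26.6%). All 4 Lhx2 sites that changed between the TACs were in suprabasal TACs alone, and 6 of the 9 falls were at Lhx2. The suprabasal heights at the 4 sites were 5.48, 1.16, 1.21 and 0.844 times what a basal TAC call needed. At the last, absence from basal TACs was thus not detectable, and 1.16 and 1.21 are near the limit.

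Beside these heights, the local background that the authors' caller used was raised at 3 of the genes. At Lhx2 peaks its median was 0.814 FPM in the bulge and 0.751 in hair germ cells, 6.24 and 5.96 times the lowest of each list, against 1.93 and 2.13 times over all peaks. In basal and suprabasal TACs it was 2.03 and 2.47 times, against 1.52 and 1.51. At Foxc1 it was 4.21 and 8.52 times in telogen and 1.2 and 2.01 times in the TACs. At Tbx1 it was 2.91, 9.06, 3.96 and 2.67 times over the 4 lists, and at Sox9 between 1.21 and 1.62 times. This background is taken over 10 kb and so includes neighbouring peaks. Where it is raised, as at Lhx2 and Foxc1 in telogen, a small site needs more fragments to be called. Member sites were also long, with a median of 901 bp against 712 bp.

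Genes of related roles give the setting. Suprabasal TACs had fewer sites than the bulge at 3 of the 4 members, where 21.4% of 16971 genes had fewer. The members with fewer were Sox9, Tbx1 and Foxc1, and Lhx2 had more. Among 16 other transcription factor genes of the bulge, 8 had fewer and 8 had more. Nfib, Zbtb16 and Nfatc1 lost most, from 72 to 44, 32 to 9 and 29 to 15 sites, and Foxp1, Gli2 and Klf5 gained most, from 41 to 74, 29 to 38 and 8 to 15. At their 233 sites shared by the bulge and suprabasal TACs the relative median was 0.08, against −0.77 for the members and 0.07 over all shared sites. The telogen-only class took 20.5% of their 634 sites.

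Transcription factor genes of the hair matrix, the dividing base of the growing follicle, went the other way. Of 12, 10 had more sites in suprabasal TACs, 0 had fewer, and Prdm1 and Ovol1 were equal. Cux1 went from 9 to 39, Lef1 from 5 to 27 and Trps1 from 14 to 32. Their relative median between suprabasal TACs and the bulge was 0.70. Among 14 paralogues of the members, 5 had fewer sites, 6 had more and 3 were equal. Lhx9 went from 7 to 3, while Foxq1 went from 5 to 9 and Tbx3 from 2 to 5, and the relative median was 0.49. The paralogues' median was thus above that of the common sites, and that of the members below it.

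By the share of its sites in each list, each member had close matches among 6653 genes with at least 5 sites. The 5 nearest were Nyx, Tex35, Arl5b, Lmo1 and Ccdc186 for Sox9, with distances of 0.076 to 0.108. For Lhx2 they were Fads2b, Gm826, Tgif1, Pde4a and Lypd6b (0.0302 to 0.0635), and for Tbx1 Cry1, Acsf2, Nampt, Wipf1 and Tmx1 (0.0433 to 0.0778). For Foxc1, F2rl1 and Ranbp9 had the same 4 counts of sites, followed by Tpt1, Anxa2 and Napepld (up to 0.0978). The distance is Euclidean over 4 shares.

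Marker genes were read by their number of sites in the same way. All 8 bulge markers had fewer sites in suprabasal TACs than in the bulge, 134 against 72 in sum, and 6 of 7 matrix markers had more, 38 against 97. Sums over the 4 lists were 35, 26, 39 and 42 at 7 melanocyte genes, 3, 5, 12 and 14 at 5 immune genes, 35, 32, 40 and 25 at 6 endothelial genes, and 19, 11, 21 and 25 at 5 dermal genes. For 6 widely expressed genes they were 36, 36, 31 and 37. Tyr had no site in any list. Cd3e, Cd207, Itgam and Csf1r had none in telogen, Cd207 and Itgam none in basal TACs, Lum none outside basal TACs, and Tek and Emcn none in suprabasal TACs. Tie1 had sites in suprabasal TACs alone. Sites of other cell types' markers were thus present in all lists, with immune genes having most in the TACs, and their part in the members' values was not tested.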

How the data were processed

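ATAC-seq was measured in 8 samples, 2 per population, and the authors deposited 1 peak list per population. Bowtie2 2.2.9, Picard and the mm10 build are named in the submitters' processing notes. Per the file headers, peaks were called with MACS 2.1.1.20160309 at a q-value cutoff of 0.05, with no control library and a local background over 10 kb. The deposited values are the length in bp, the coverage (pileup signal) in whole fragments at the summit, −log10 p-values and q-values, and the fold enrichment, a ratio to the local background. These scores are the authors' own. Whether read ends were shifted for the transposase, the sources used here do not say.

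Peaks overlapping by at least 1 bp were merged into sites on chromosomes 1 to 19 and X, and a site belongs to each gene nearest to the midpoint of any of its peaks. Gene spans came from RefSeq, GRCm38.p6, with 21627 protein-coding genes placed. Coverage was divided by the fragments in the file headers, per 1000000 (FPM). A site was called different in height at 2-fold. The local background was recomputed from coverage and fold, and gave the deposited −log10 p-values with a median gap of 9.71e-06. From it came the fragments needed for a call where a list has no peak, using the nearest called peak within 10 kb or else the lowest background of the list. Fragments carry no molecular identifiers, so intervals of ratios cover counting error only. Intervals of medians are order-statistic intervals over sites. The merging and the intervals of ratios were tested on simulated data. Python 3.11.15, pandas 2.3.3, numpy 2.4.6, scipy 1.17.1 and matplotlib 3.10.9 were used. The members and gene lists were chosen with earlier results of these data known, and no p-values were computed.

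Per member, the text names sites within 1 kb of a gene end, the highest site of each list, sites in all 4 lists, and telogen-only and anagen-only sites. Of each gene list, those with the largest difference in sites between the bulge and suprabasal TACs are named, and the nearest 5 genes by shares of sites. Alternatives covered the overlap, the distance limit, a stricter q-value, depth, mean heights and leaving out each member.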

Additional observations from a re-analysis of the deposited data

How the results depend on the processing

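No paired analysis was possible because each population has 1 pooled list, and for the same reason no replicate could be left out. Over 12 alternatives per result, the share of changed member sites held by the first-named list ran from 38.5% to 71.4% for the hair germ against the bulge, from 28.6% to 41.9% for basal TACs against the bulge, from 32.1% to 47.4% for suprabasal TACs against the bulge, from 20% to 45.5% for basal TACs against the hair germ, and from 33.3% to 61.5% for suprabasal against basal TACs. All 60 shares stayed within the counting interval of the reported value, which is wide at these numbers of sites. Of 60 alternatives to the median log2 ratios, 59 moved by less than the reported interval. The exception was suprabasal TACs against the bulge, whose median of −1.92 became −0.77 when heights were set against the sites held by all 4 lists. The same scaling brought the medians nearer to 0 in the other TAC comparisons, to −0.31 and −0.21 for basal TACs against the bulge and the hair germ and −0.10 for suprabasal against basal TACs. The hair germ's median ratio to the bulge ran from −0.27 to 0.17 and so changed sign. Assigning each site by its own midpoint, an alternative chosen after seeing the data, removed the Sox9 site at the 100 kb limit. Depth limits the hair germ list most, with 1 fragment worth 0.0905 FPM.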
